A study of Harpegnathos saltator with 18 samples.

Results

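The part of the brain outside the visual centres was compared with the retina in workers of the ant Harpegnathos saltator, across all measured genes. The 6 libraries compared are 3 of worker non-visual brain and 3 of worker retina, out of 18 libraries of 6 tissues. A further 3 libraries of worker optic lobe were used to place each difference. Of the tissues outside the comparison, the ovary is labelled as taken from gamergates, and all others as taken from workers. Per the labels, all workers lived in plaster nests at 25 °C and 50% humidity with 12 hours of light a day and ate live crickets, and no treatment or genotype separates the groups. Polyadenylated RNA was sequenced without strand, so reads from a gene and from an overlapping antisense gene cannot be told apart. The labels give no age and no number of animals for a library. Nor do they say whether the replicates of a tissue were taken from different ants. A p-value here sets a difference against the scatter of libraries, and that scatter may be technical.

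In insects, the brain outside the optic lobes holds the mushroom bodies, the central complex and the antennal lobes, which serve learning, steering and smell. The retina of the compound eye is built mainly of photoreceptors, which make large amounts of visual pigment and of the proteins that carry its signal, together with pigment and cone cells. The optic lobe lies between the retina and the rest of the brain and is brain tissue: its neurons receive the axons of the photoreceptors, whose cell bodies stay in the eye.

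RPKM is the unit of the deposited table: the reads of a gene model divided by its length and by all reads of its library. The table holds 20755 models, of which 20317 carry HSALG identifiers and 438 are XLOC loci. The comparison took those at 1 RPKM or more in at least 3 of the 6 libraries, which left 10570 models (10267 HSALG and 303 XLOC). No identifier (0 of 20755) could be found among the 14329 RefSeq genes against which names were sought. The models are therefore given by identifier, no role can be given to any of them, and the tissue labels could not be checked against marker genes of photoreceptors, neurons or glia.

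The library totals worked out from the RPKM lay between 11.3 and 15.2 M reads (M for mega) in non-visual brain, between 10.98 and 26.5 M in optic lobe and between 10.5 and 21.1 M in retina. For a model of 1000 bases, 3 reads were worth 0.197 to 0.265 RPKM in non-visual brain and 0.142 to 0.287 RPKM in retina. Within a tissue, log2 levels correlated across the 10570 models at r between 0.814 and 0.918 in non-visual brain and between 0.838 and 0.939 in retina. Between non-visual brain and retina r lay between 0.546 and 0.649, a description across genes, which are not replicates. The optic lobe libraries were less alike: replicate 3 correlated with the non-visual brain libraries at 0.826 to 0.851, and with optic lobe replicates 1 and 2 at 0.823 and 0.796. Non-visual brain replicate 1 was about as close to optic lobe replicate 3 (0.829) as to the other libraries of its own tissue (0.841 and 0.814). The shallowest library of each tissue also had the most tested models at 0, with 1089 in non-visual brain replicate 1, 506 in optic lobe replicate 3 and 1507 in retina replicate 3, against 81 to 387 in the other 6 libraries.

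On the scale as deposited, far more genes were higher in non-visual brain than in retina than the other way round. Some of the other scalings described below removed this excess. The widest differences belonged to genes with the higher level in retina. Of the 10570 models, 3168 (30.0% of those tested) were higher in non-visual brain than in retina, and a further 606 (5.73%) were lower. A model was called where limma, fitted on log2(RPKM + 1) of the 9 brain and eye libraries, gave a Benjamini-Hochberg adjusted p under 0.05 and a difference of at least 2-fold. The other 6796 were not called, which does not show that they were equal. All differences are on the log2(RPKM + 1) scale, non-visual brain minus retina, which understates the change of models with low values.

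The 3 libraries of non-visual brain all lay above the 3 of retina for 4915 models (46.5%) and all below them for 696 (6.58%). Among the called models, 3121 of the 3168 higher and 580 of the 606 lower showed no such overlap. Because these are bulk tissues, fewer cells of a type and less RNA per cell cannot be told apart.

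**Figure D1:**
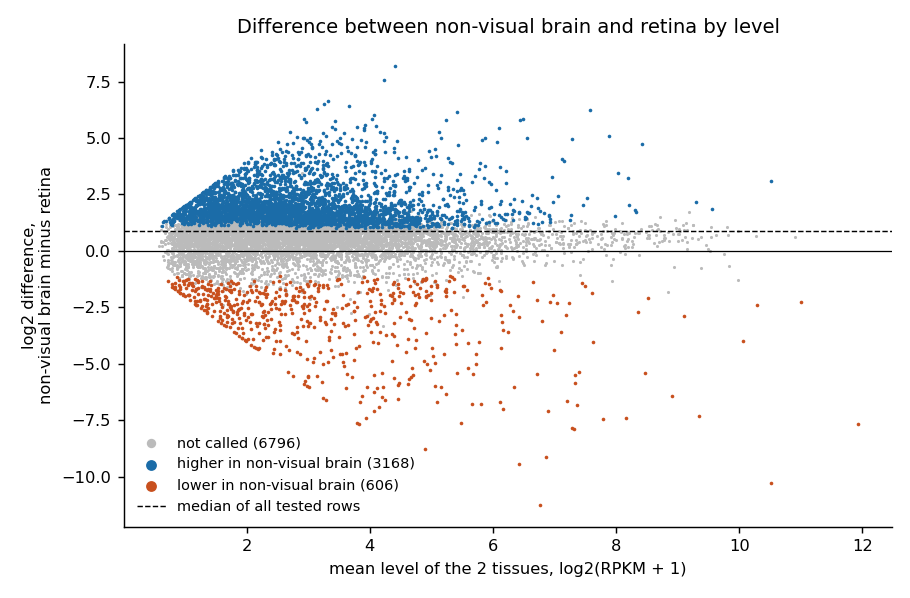
Difference of each of the 10570 models, as mean log2(RPKM + 1) of non-visual brain minus retina, against the mean log2 level over the 6 libraries, with called models coloured by direction. The cloud sits above 0, with a median of 0.87, and the models far below 0 reach levels that few models far above 0 reach.

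The count of higher models depends on the scale, since the middle of all models was itself displaced. The median difference was 0.87, or 1.83-fold, and 81.8% of the tested models lay above 0. When the libraries were rescaled with trimmed-mean factors, which set the middle of the models equal, the median difference was 0.04 and the calls split almost evenly, into 1023 higher (9.68%) and 1034 lower (9.78%). Quantile normalization gave 976 higher and 1011 lower. In the other direction, rescaling each library to the same sum of RPKM gave 4572 higher and 538 lower.

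Both centring scalings move the median difference down, which by itself favours lower calls over higher ones. All 606 lower models were also called lower with trimmed-mean factors, and 604 of them with quantile normalization. Of the 3168 higher models, 1023 were also called with trimmed-mean factors and 969 with quantile normalization. Single libraries also moved the higher count by more than 1.5 times, to 2091 without non-visual brain replicate 2 and to 2015 without non-visual brain replicate 3.

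**Figure D2:**
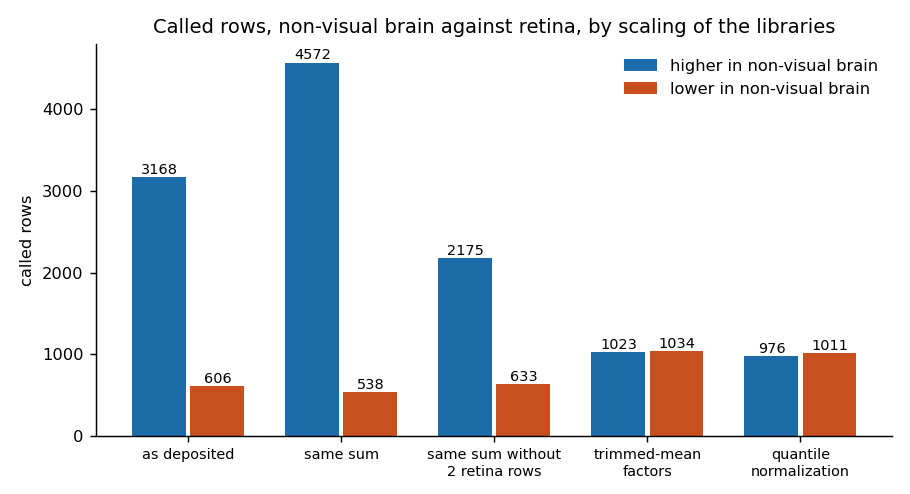
Number of models called higher and lower in non-visual brain than in retina, as bars side by side, under 5 scalings of the libraries. The share of higher models among the calls ran from 89.5% with equal sums of RPKM to 49.1% with quantile normalization. The values as deposited give 3168 higher and 606 lower.

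The excess of higher models narrowed with the size of the difference. At 4-fold or more there were 1246 higher and 404 lower models, and at 16-fold or more 131 and 122. At 64-fold or more the order was turned round, with 9 higher and 42 lower, and at 256-fold or more there were 1 and 5. With trimmed-mean factors, 595 higher and 709 lower models passed 4-fold, 60 higher and 202 lower models passed 16-fold, and 5 and 75 passed 64-fold.

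The leading higher model was HSALG013198.2, of 633 coding bases. It stood at 546.7, 453.4 and 189.2 RPKM in the non-visual brain libraries, against 0.449, 0.310 and 0 RPKM in the retina libraries, which rest on 6, 4 and 0 reads. The tissues did not overlap, and the optic lobe, at 1.26, 3.34 and 5.76 RPKM, lay between them, above the retina by 1.71 (limma adjusted p = 0.0145) and far below non-visual brain. The difference was 8.19 ± 0.50 (SE, limma adjusted p = 4.99e-07).

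HSALG001442.2, of 3489 coding bases, showed the next largest higher difference. It had 357.8, 205.4 and 233.5 RPKM in non-visual brain, against 0.0543, 1.35 and 0 RPKM in retina. Retina replicate 2 was the only retina library with more than a few reads of it, with 96, beside 4 in replicate 1 and 0 in replicate 3. The optic lobe libraries, at 0.214, 0.141 and 1.33 RPKM, covered a like range. The difference was 7.58 ± 0.48 (SE, limma adjusted p = 6.10e-07).

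On the other side, HSALG011742.2, of 393 coding bases, was the model with the largest difference of all that were tested. It had 0, 0.502 and 6.12 RPKM in non-visual brain, against 6426, 4153 and 5635 RPKM in retina. The optic lobe, at 0.406, 0.672 and 1.39 RPKM, was as low as the rest of the brain, while the antenna had 301.9, 205.2 and 210.3 RPKM. The difference was -11.24 ± 0.59 (SE, limma adjusted p = 3.59e-07).

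HSALG012731.2, of 1083 coding bases, was lower in non-visual brain from a far higher retina level. It had 153.9, 118.2 and 2.84 RPKM in non-visual brain, against 57742, 80822 and 28806 RPKM in retina, and 461.6, 277.5 and 507.3 RPKM in optic lobe. Non-visual brain replicate 3 lay far below the other brain libraries, and the spread of this model was accordingly wide. The difference was -10.27 ± 1.14 (SE, limma adjusted p = 2.79e-05).

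A number of models had no read at all in 1 of the tissues. Among the higher models, 58 were listed at 0 in all 3 retina libraries, and 1 of these was also at 0 in all 3 optic lobe libraries. Set against a floor of 3 reads over the 3 libraries of the tissue together, they were at least 7.10-fold to at least 1382-fold higher in non-visual brain, with a median bound of 34.0-fold. Among the lower models, 44 were listed at 0 in all 3 non-visual brain libraries, 14 of them also in all optic lobe libraries, and their bounds ran from 6.12-fold to 10275-fold lower, with a median of 71.8-fold.

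The lower models were few but made up most of the retina's RPKM. They held 2.14%, 2.27% and 2.83% of the summed RPKM of the non-visual brain libraries (2.41 ± 0.368%, SD, n = 3), against 58.9%, 64.1% and 54.8% in retina (59.3 ± 4.64%, SD, n = 3). The higher models held 32.8%, 33.6% and 36.0% in non-visual brain (34.2 ± 1.65%, SD, n = 3), against 5.65%, 4.92% and 4.78% in retina (5.12 ± 0.463%, SD, n = 3). The models were called on these same values, so the shares describe the weight of the calls and test nothing.

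The optic lobe resembled the non-visual brain in both shares. Its libraries gave 2.56%, 2.65% and 2.93% of their RPKM to the lower models and 36.5%, 36.8% and 30.8% to the higher ones. The 10 most abundant models of a library took 5.48% to 9.32% of RPKM in non-visual brain and 5.51% to 7.98% in optic lobe, against 39.2% to 46.6% in retina.

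**Figure D3:**
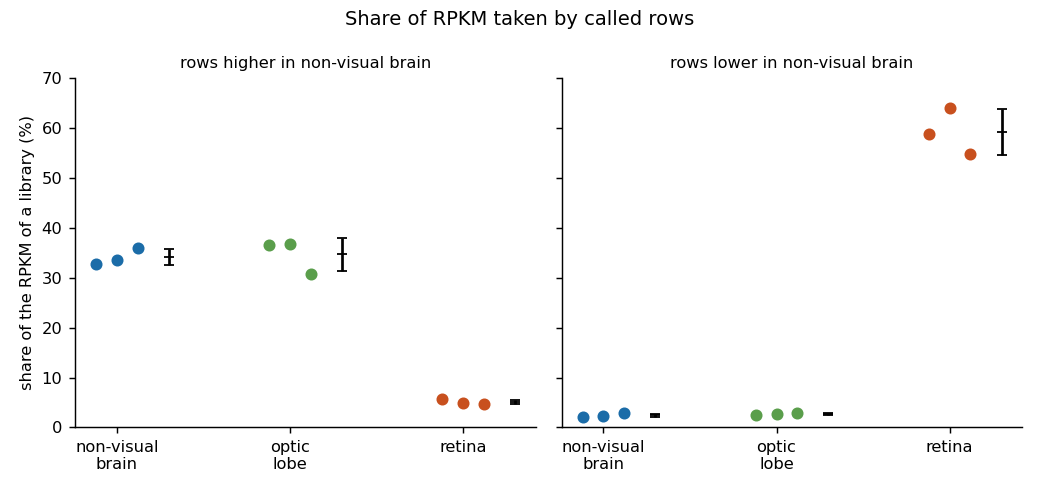
Share of each library's summed RPKM, in percent, held by the models called higher and by those called lower in non-visual brain than in retina. Each library of non-visual brain, optic lobe and retina has a point, beside the tissue mean with its SD. The lower models hold 54.8% to 64.1% in retina and at most 2.93% in any brain library.

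A large part of the retina's RPKM came from HSALG012731.2 and from HSALG012315.1, which was singled out after its values were seen. Together they held 31.9%, 38.2% and 23.0% of RPKM in the retina libraries, against 0.135%, 0.0998% and 0.186% in non-visual brain. HSALG012315.1, of 1221 coding bases, had 286.3, 140.4 and 500.1 RPKM in non-visual brain, against 59011, 76038 and 37152 RPKM in retina. The difference was -7.66 ± 0.83 (SE, limma adjusted p = 2.27e-05). Unlike HSALG011742.2, both were above 100 RPKM in every brain library but 1, non-visual brain replicate 3, where HSALG012731.2 was at 2.84 RPKM. With both left out of the sum and the libraries set to the same remaining sum, a scaling chosen after the data were seen, 2175 models were higher and 633 lower, with a median difference of 0.70.

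Models with a large difference were often listed at low levels, above 0, in the other tissue. The 100 models with the largest lower differences stood at a median of 0.165%, 0.763% and 1.14% of their retina level in the non-visual brain libraries and of 0.686%, 0.734% and 1.27% in the optic lobe libraries. The 100 with the largest higher differences stood at a median of 2.99%, 0.783% and 0.942% of their non-visual brain level in the retina libraries. Those 100 higher models reached 24.0%, 36.7% and 39.9% in the optic lobe libraries, well above the retina libraries. Whether such low levels come from the tissue itself was not tested.

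The optic lobe showed most of the differences between non-visual brain and retina in the same direction. Set against retina, optic lobe was higher for 4566 models (43.2%) and lower for 621 (5.88%). Between the brain tissues few models were called, with 65 (0.615%) higher and 49 (0.464%) lower in non-visual brain than in optic lobe. The spread within the brain tissues bears on this count: without optic lobe replicate 3, which stood close to non-visual brain, 103 models were higher and 105 lower. They numbered 24 and 4 without optic lobe replicate 1, 25 and 6 without replicate 2, 35 and 11 without non-visual brain replicate 2, and 40 and 19 without replicate 3. The lower count was also 23 without retina replicate 1 and 26 without retina replicate 2. With limma's library weights, which gave non-visual brain replicate 2 a weight of 10.1 and the others 0.308 to 3.11, 906 were higher and 1770 lower, so a missing call between the brain tissues does not show equal levels. The median difference was 1.09 for optic lobe minus retina and -0.20 for non-visual brain minus optic lobe. The 3 comparisons share libraries, so their calls are not independent and the counts that follow describe them side by side.

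A higher model was counted on the brain side where optic lobe was also called above retina and was not called below non-visual brain, and on the retina side where the reverse held. By this count, on the scale as deposited, 2601 of the 3168 higher models (82.1%) lay on the brain side and 39 (1.23%) on the retina side. A further 17 were called in all 3 comparisons with the optic lobe between the other tissues, 20 were highest and 1 was lowest in optic lobe, and for 490 (15.5%) optic lobe was called against neither tissue. Of the 606 lower models, 492 (81.2%) lay on the brain side, 4 (0.66%) on the retina side, 1 between and 3 with optic lobe lowest, while 106 (17.5%) were called against neither.

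The small classes are the least stable of these counts. Leaving out non-visual brain replicate 3 or retina replicate 3 lowered the higher models on the brain side to 1664 and 1713. The higher models on the retina side numbered 25 without non-visual brain replicate 2 and 16 without optic lobe replicate 1 or 2. The lower models on the retina side numbered 0 without optic lobe replicate 1 and 1 without replicate 2, but 11 without optic lobe replicate 3 and 7 without retina replicate 3, and 2 without non-visual brain replicate 2, retina replicate 1 or retina replicate 2.

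The levels were also described without a threshold on the optic lobe. The optic lobe mean was placed on a line on which the retina mean of a model is 0 and its non-visual brain mean is 1. The median position was 1.03 for the higher models, with the quartiles at 0.79 and 1.26, and 2930 of them (92.5%) lay nearer to non-visual brain. For the lower models the median was 0.98, with the quartiles at 0.74 and 1.10, and 523 (86.3%) lay nearer to non-visual brain. Taken library by library, the medians were 1.14, 0.97 and 1.0 for the higher and 0.97, 0.99 and 0.94 for the lower models, so the medians lay near non-visual brain in each optic lobe library. The position uses the retina and non-visual brain means that made the calls, so it is no independent evidence. All tested models were displaced too, with a median of 1.09 for optic lobe minus retina and 0.87 for non-visual brain minus retina. Positions near 1 among higher models follow in part from that.

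**Figure D4:**
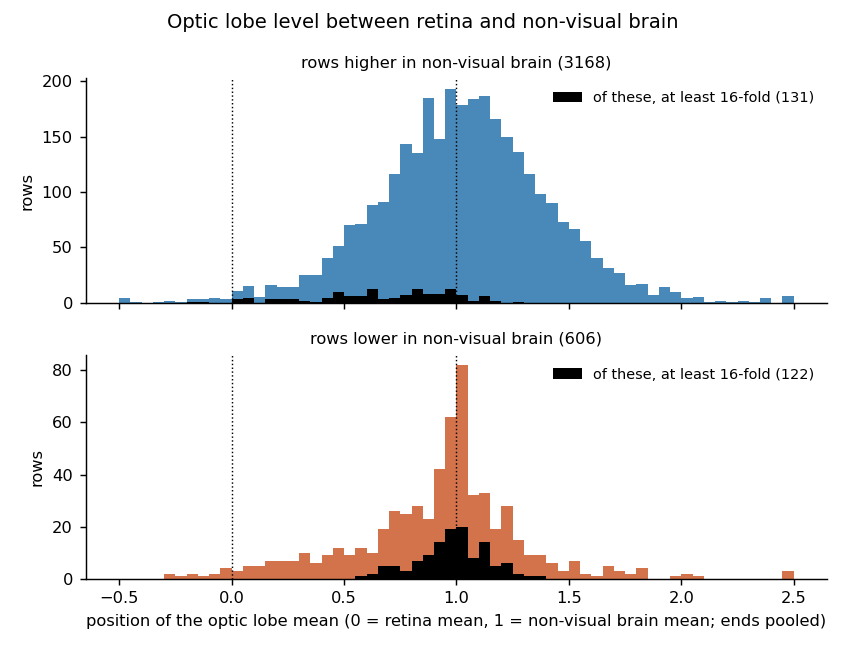
Distribution of the position of the optic lobe between retina (0) and non-visual brain (1) for models higher and lower in non-visual brain. Models with a difference of 16-fold or more are overlaid in black, and positions beyond the axis are pooled at its ends. The median is 0.74 for the higher models of 16-fold or more and 0.995 for the lower models of that size.

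Among the widest differences, the position was spread further for the higher than for the lower models. All 122 lower models of 16-fold or more lay on the brain side, with a median position of 0.995 and quartiles at 0.89 and 1.09. Of the 131 higher models of 16-fold or more, 98 (74.8%) lay on the brain side, 17 on the retina side and 15 between, with a median position of 0.74 and quartiles at 0.49 and 0.93. No lower model of this size was thus called between the brain tissues, whereas some of the higher ones were also low in optic lobe. A missing call does not show equal levels: HSALG012731.2 differed by -3.28 between non-visual brain and optic lobe (limma adjusted p = 0.245). Where both brain tissues are low, the log2(RPKM + 1) scale also narrows their difference. How far this shapes the positions of the lower models was not tested. No test compared the higher with the lower models. Among higher models of 2 to 4-fold the median position was 1.08, and 1 of 1922 lay on the retina side.

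HSALG004673.2, of 2880 coding bases, was an abundant higher model shared by both brain tissues. It had 1715, 1428 and 1837 RPKM in non-visual brain and 1466, 1102 and 1701 RPKM in optic lobe, against 69.9, 5.58 and 21.7 RPKM in retina. Every brain library lay above every retina library, and the retina libraries differed more among themselves, in proportion, than the brain libraries did. The limma differences were 6.23 ± 0.72 for non-visual brain minus retina (SE, adjusted p = 3.58e-05) and 0.24 for non-visual brain minus optic lobe (adjusted p = 0.918).

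HSALG029710.1, of 153 coding bases, was listed at 0 in all 3 retina libraries. It had 162.6, 53.8 and 51.6 RPKM in non-visual brain and 0.696, 11.3 and 19.7 RPKM in optic lobe. The optic lobe lay above the retina but below the non-visual brain, and this last difference, 3.36, missed the threshold (limma adjusted p = 0.0541). Against the floor of 3 reads it was at least 219-fold higher in non-visual brain than in retina.

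On the retina side, HSALG010775.2, of 678 coding bases, was found in non-visual brain and hardly elsewhere. It had 151.0, 86.4 and 55.6 RPKM in non-visual brain and 0.863, 0.167 and 2.96 RPKM in optic lobe, against 0 in all 3 retina libraries. It was at least 1092-fold higher in non-visual brain than in retina, and the limma difference of non-visual brain minus optic lobe was 5.47 (adjusted p = 8.16e-05).

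HSALG005445.2, of 417 coding bases, had 772.4, 243.1 and 251.7 RPKM in non-visual brain and 0.766, 0 and 6.12 RPKM in optic lobe, against 2.04, 3.64 and 8.26 RPKM in retina. Non-visual brain replicate 1 lay well above the other libraries of that tissue, yet the lowest of them lay far above every optic lobe and retina library. The limma differences were 6.16 for non-visual brain minus retina (adjusted p = 2.86e-05) and 7.29 for non-visual brain minus optic lobe (adjusted p = 8.16e-05).

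Among the lower models, HSALG004811.2, of 1134 coding bases, and HSALG002894.2, of 615, were abundant in retina and low in both brain tissues. HSALG004811.2 had 14.4, 1.22 and 0 RPKM in non-visual brain and 2.63, 3.73 and 5.70 RPKM in optic lobe, against 2326, 2647 and 1865 RPKM in retina. HSALG002894.2 had 11.3, 1.82 and 2.39 RPKM in non-visual brain and 2.51, 3.93 and 9.18 RPKM in optic lobe, against 2869, 4410 and 1637 RPKM in retina. In both, non-visual brain replicate 1 was the highest of its tissue, and the brain tissues overlapped each other. The differences of non-visual brain minus retina were -9.44 ± 0.73 and -9.13 ± 0.59 (SE, limma adjusted p = 1.88e-06 and 6.10e-07).

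Only 4 lower models had the optic lobe on the retina side, and they were far less abundant. HSALG002450.1, of 219 coding bases, had 0, 2.10 and 0 RPKM in non-visual brain, from 7 reads in all, and 36.9, 11.2 and 34.9 RPKM in optic lobe, against 42.4, 27.3 and 9.17 RPKM in retina. HSALG024312.1, of 831 coding bases, had 5.42, 2.14 and 2.57 RPKM in non-visual brain and 31.3, 23.5 and 16.7 RPKM in optic lobe, against 26.1, 26.6 and 28.9 RPKM in retina. In both, no non-visual brain library reached the lowest library of either other tissue, while optic lobe and retina lay close together. The differences of non-visual brain minus retina were -3.99 ± 0.64 and -2.76 ± 0.40 (SE, limma adjusted p = 0.000450 and 0.000208).

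**Figure D5:**
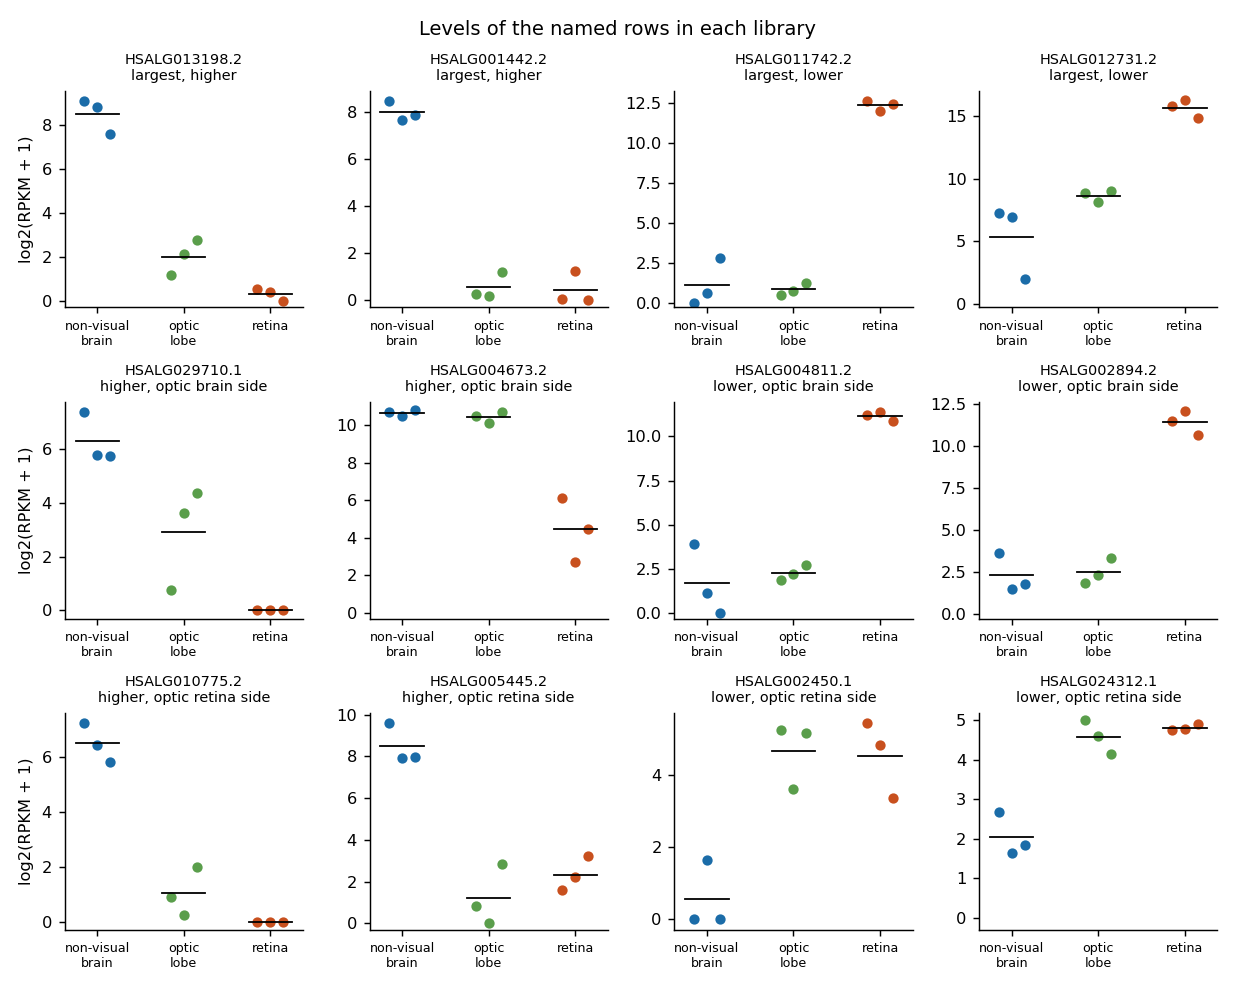
Level of the models named for the main comparison and for the optic lobe classes, as log2(RPKM + 1). Each of the 9 libraries of non-visual brain, optic lobe and retina has a point, and a line marks the tissue mean. HSALG011742.2 reaches 6426 RPKM in retina and stays at or below 6.12 RPKM in all brain libraries, while HSALG010775.2 is at 0 in all retina libraries.

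Of the 303 XLOC loci tested, 116 (38.3%) were higher and 21 (6.93%) lower in non-visual brain, beside 29.7% and 5.70% of the HSALG models. With trimmed-mean factors the shares of XLOC loci were 12.9% higher and 9.90% lower, beside 9.58% and 9.78% of the HSALG models. The optic lobe lay on the brain side for 98 of the 116 and for 19 of the 21.

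The XLOC loci with the largest differences are given here. XLOC_044230 had 498.4, 328.0 and 276.7 RPKM in non-visual brain, against 15.1, 4.04 and 24.1 RPKM in retina, a difference of 4.82 ± 0.63 (SE, limma adjusted p = 0.000102). Its optic lobe values of 49.0, 92.7 and 233.9 RPKM were widely spread and lay between those of the other tissues. XLOC_117569 had 57.3, 22.6 and 23.6 RPKM in non-visual brain, against 1.57, 0.486 and 0 RPKM in retina, a difference of 4.37 ± 0.54 (SE, limma adjusted p = 5.89e-05).

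Among lower loci, XLOC_093883 had 0, 2.71 and 7.57 RPKM in non-visual brain, against 703.0, 660.9 and 523.9 RPKM in retina, a difference of -7.62 ± 0.61 (SE, limma adjusted p = 2.28e-06). XLOC_057823 had 1.17, 0 and 0 RPKM in non-visual brain, against 173.1, 18.2 and 62.3 RPKM in retina, a difference of -5.52 ± 0.67 (SE, limma adjusted p = 5.20e-05). Both were low in every optic lobe library too, XLOC_093883 at 0.304, 0.691 and 1.04 RPKM and XLOC_057823 at 0.786, 0.892 and 1.61 RPKM. Neither was confined to the retina, since in the antenna libraries, another sense organ, XLOC_093883 had 282.6, 223.7 and 270.8 RPKM and XLOC_057823 had 431.7, 336.8 and 185.3 RPKM.

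Lower models made up a larger share of the abundant models. When the 10570 models were split by their mean RPKM over the 6 libraries into 5 classes of 2114, the lower models made up 4.07% to 4.40% of the other classes and 11.8% of the most abundant, above 19.9 RPKM. From the least to the most abundant class, the higher models made up 19.7%, 30.4%, 35.1%, 36.5% and 28.2%. The mean behind the classes includes the retina libraries, so abundance in retina alone can raise a model into the top class. The coding length was similar, with a median of 1155 bases for higher, 1020 for lower and 1065 for all tested HSALG models.

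Over all 6 tissues, the retina was the site of the highest mean level for 394 of the 606 lower models (65.0%), against 6.12% of all tested models. The fat body was highest for 95 lower models (15.7%, against 7.80% of all tested), the ovary for 60 (9.90%, against 29.4%), the antenna for 48 (7.92%, against 5.07%) and the optic lobe for 9 (1.49%, against 36.4%). Among the 3168 higher models, optic lobe was highest for 1360 (42.9%), near its share of all tested models, non-visual brain for 978 (30.9%, against 15.2%) and ovary for 634, below its share of all tested models. These shares follow in part from the calls, since a lower model cannot be highest in non-visual brain. The ovary libraries came from gamergates and all others from workers, so caste and tissue cannot be told apart for the ovary.

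Few models could be shown to be close to equal on the scale as deposited. The 95% confidence interval of the difference lay within 2-fold in both directions for 172 models (1.63%), and the median half-width of the interval was 1.04, so most intervals were too wide for it. The most abundant of the 172 was HSALG008429.2, with 114.6, 124.0 and 103.2 RPKM in non-visual brain, against 87.9, 87.7 and 181.4 RPKM in retina, a difference of 0.02 (95% interval -0.90 to 0.94). HSALG010903.2 had 106.8, 117.4 and 113.8 RPKM in non-visual brain, against 129.8, 108.6 and 91.9 RPKM in retina, a difference of 0.05 (-0.82 to 0.91). In both, the libraries of the tissues overlapped. Being equal as deposited placed them below the median model, and with trimmed-mean factors their differences were -1.03 and -1.0.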

How the data were processed

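Polyadenylated RNA of Harpegnathos saltator tissues was sequenced unstranded, and the values the authors deposited are RPKM, with 1 column for each library and no pooling. STAR 2.5.0b and DESeq2 are named, without a role, in the submitters' processing notes. Genome build, annotation and read counting: not given in the sources used here. Whether reads shared by near-identical copies or overlapping models were split is not given either, so such models are uncertain. All libraries share 1 flow-cell label, which leaves no sequencing batches to compare.

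Models at 1 RPKM or more in at least 3 of the 6 non-visual brain and retina libraries were tested with limma 3.58.1 in R 4.3.3 (lmFit and eBayes with a mean-variance trend) on log2(RPKM + 1), two-sided. The 9 non-visual brain, optic lobe and retina libraries shared 1 fit, with no covariate and Benjamini-Hochberg adjustment over the 10570 models. Because RPKM keeps the step of 1 read, reads, lengths and library totals were recovered jointly for 18480 of 18589 models (99.4%), whole to a relative allowance of 1.5e-06, and on simulated data all 18 totals came out right, as did every read of 96.7% of the 17951 models recovered there, of 18039 above 0. Among the HSALG lengths recovered in this way, 97.5% could be divided by 3, and the term coding bases is used for them on that ground. The recovery may itself have favoured such lengths, so the share is no independent check of the term. Between 30.1% and 47.7% of the reads of a brain or eye library lay in models. Among recovered counts of 1 to 10 in these 9 libraries, 47.1% to 66.0% were even, and the reason was not tested. Reads may therefore not all be independent, and floors of 3 reads cover counting error only. On simulated data of 10570 models the fit called 3 of 50 changed 2-fold, 35 of 50 changed 4-fold and all 50 changed 8-fold. It also called 13 of 10370 unchanged ones. The changed models there were drawn from the more abundant ones, and all models had the same fixed dispersion. The displaced median of the real data was absent, so these rates need not hold for the real libraries.

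The members and lists were chosen with earlier results of these data known. Named models were, in each direction, the 2 called with the largest difference whose libraries did not overlap, likewise for each optic lobe class (with no overlap of the optic lobe with the opposite tissue) and for XLOC loci, and the 2 most abundant whose 95% interval lay within 2-fold. HSALG012315.1 and HSALG004477.1 were added after their values were seen. The lists of cell type markers could not be applied without gene names. Alternatives were the pseudocount, the filter, 4 scalings, library weights, other sets of libraries, voom on recovered reads, the replicate number as a block and leaving out each library. The scaling without the leading retina models, and all alternatives for non-visual brain against optic lobe, were chosen after seeing the data.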

Additional observations from a re-analysis of the deposited data

Results flagged for a closer look

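Both sets of called models were also present in tissues outside the comparison. The 606 models lower in non-visual brain than in retina held a mean of 17.3% of summed RPKM in antenna, 32.8% in fat body and 3.59% in gamergate ovary. Every library of these tissues lay above the highest non-visual brain library, at 2.83%. The antenna mean rests on unequal libraries of 11.3%, 11.8% and 28.8%, and in replicate 3 HSALG012315.1 and HSALG012731.2 alone held 15.2%.

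In fat body a different model led. HSALG004477.1, singled out after its values were seen, had 31254, 24509 and 34807 RPKM in the fat body libraries, or 5.93% to 8.20% of their RPKM. It had 189.5, 95.8 and 449.0 RPKM in non-visual brain, against 1452, 2492 and 943.9 RPKM in retina (difference -2.90 ± 0.70, SE, limma adjusted p = 0.00721).

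The 3168 models higher in non-visual brain held a mean of 15.6% in antenna, 8.46% in fat body and 10.5% in ovary. Each library lay above the highest retina library, at 5.65%, an order that again follows in part from the calls.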

How the results depend on the processing

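The counts depended on scaling, on the libraries in the fit and on their weights. The models higher in non-visual brain numbered 1023 with trimmed-mean factors, 976 with quantile normalization and 1575 with all 18 libraries in the fit, and the lower ones 1034 and 1011 with the first 2 of these. Higher models on the brain side numbered 690 of 1023 with trimmed-mean factors and 638 of 976 with quantile normalization. They numbered 1254 of 1575 with all 18 libraries, 3925 of 4572 with equal sums of RPKM and 2748 of 4362 with library weights. Their share was thus smaller than as deposited with trimmed-mean factors, quantile normalization and library weights. Lower models on the brain side numbered 850 of 1034 with trimmed-mean factors, 809 of 1011 with quantile normalization and 454 of 802 with library weights. Higher models on the retina side numbered 10 with a pseudocount of 0.1, 24 with voom on recovered reads and 301 with library weights, whose estimation stopped short of its tolerance. Lower models on the retina side numbered 115 with library weights, 10 with quantile normalization, 7 with equal sums, 2 without a filter, and 1 with all 18 libraries, with a pseudocount of 0.1 and with voom. Between non-visual brain and optic lobe, 24 models were higher and 3 lower with a pseudocount of 0.1, and the lower count was 16 with trimmed-mean factors, 18 with all 18 libraries and 32 with voom. The median difference lay between 0.04 and 1.12 over all alternatives.

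Leaving out each library in turn gave 2015 to 3595 higher and 481 to 636 lower models, 1664 to 2978 higher and 396 to 523 lower on the brain side, and 16 to 47 higher and 0 to 11 lower on the retina side. The replicate numbers gave no sign of pairing: deviations of same-numbered libraries correlated at -0.41 to 0.14 over 9 pairs, and 2 of 9 libraries were closest to their own number. Differently numbered libraries of different tissues ranged from -0.32 to 0.38. With 3 libraries per tissue this cannot show whether same-numbered libraries came from the same ants, which the labels do not say. With the replicate block 2516 models were higher and 562 lower, with 2 lower models on the retina side, and 21 lower in non-visual brain than optic lobe. The 18 named models called between non-visual brain and retina kept that call, in the same direction, in all 20 alternatives. This covers that call only, not the optic lobe class: no lower model lay on the retina side without optic lobe replicate 1. HSALG008429.2 and HSALG010903.2 stayed without a call, though their sign changed under some alternatives, such as trimmed-mean factors. In non-visual brain and retina, 3 reads on 1000 bases were worth up to 0.287 RPKM, which limits what low values can show.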
